A study of Homo sapiens with 12 samples.

Results

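HIVEP1, HIVEP2, HIVEP3, SDC4 and FILIP1L are 5 of the 42157 genes in the count table of the study, found by their symbols. HIVEP1, SDC4 and FILIP1L were picked because they were lower with ML-792 and DNR together than with DNR alone, whereas HIVEP2 and HIVEP3 complete the gene family of HIVEP1 and were not picked on values. All 5 were among the 13696 genes tested, those that passed a filter on low counts. HL-60 cells, an established line derived from acute myeloid leukemia, were treated for 3 h with the vehicle DMSO, with 1 µM daunorubicin (DNR, an anthracycline that inserts itself between DNA bases and blocks topoisomerase II), with 0.5 µM ML-792 (an inhibitor of the enzyme that activates the small protein SUMO for attachment to other proteins), or with 0.5 µM ML-792 and 1 µM DNR together (ML-792+DNR). Polyadenylated RNA was sequenced in 3 replicates of each of the 4 groups, 12 libraries in all, which per the methods of the study came from independent experiments. All groups are the same cell line with no genetic change.

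HIVEP1, HIVEP2 and HIVEP3 encode large zinc finger proteins that bind sequences resembling the sites of NF-κB, the main activator of inflammatory transcription, and their fly relative schnurri acts with SMAD proteins in signalling by bone morphogenetic proteins. HIVEP2 is known from T cells and neurons, and HIVEP3 from the control of bone formation. SDC4 encodes syndecan-4, a transmembrane proteoglycan whose heparan sulfate chains bind growth factors and extracellular matrix and which takes part in focal adhesions. FILIP1L encodes a relative of the filamin A-interacting protein, and has been studied as an inhibitor of cell migration and proliferation.

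On GRCh37, HIVEP1 is on chromosome 6 (12008995 to 12165232, plus strand), HIVEP2 on chromosome 6 (143072606 to 143277835, minus strand), HIVEP3 on chromosome 1 (41972036 to 42501596, minus strand), SDC4 on chromosome 20 (43953928 to 43977064, minus strand) and FILIP1L on chromosome 3 (99547655 to 99833357, minus strand). The genes thus span from 23.1 kb (SDC4) to 529.6 kb (HIVEP3). The 250 bases upstream of the start of the transcript annotated as canonical are shown for SDC4, which had the largest rise of the members with DNR. In this window (chr20:43977065-43977314, minus strand) the capitals mark a match to the NF-κB consensus, at positions −97 to −88 counted from the start.
SDC4: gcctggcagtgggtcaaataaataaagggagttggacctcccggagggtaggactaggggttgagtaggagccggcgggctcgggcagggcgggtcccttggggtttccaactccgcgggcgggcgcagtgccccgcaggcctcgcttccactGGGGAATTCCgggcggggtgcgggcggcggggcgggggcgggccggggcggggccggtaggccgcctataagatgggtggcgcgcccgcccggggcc
Searched on both strands with overlaps allowed, the NF-κB consensus was found in 11.3% of the same windows of 19874 protein-coding genes, and among SDC4, HIVEP2, HIVEP3 and FILIP1L in that of SDC4 alone. The GC box GGGCGG, the core site of SP1-type factors, was found in 59.1% of windows, and among these 4 genes in those of SDC4 and HIVEP2. The AP-1 motif TGANTCA (4.69% of windows) and the cAMP response element TGACGTCA (2.4%) were in none of these 4 windows. Each window is that of the canonical transcript, and other starts were not searched. SDC4 has 1 annotated transcript, HIVEP2 10, HIVEP3 7 and FILIP1L 10. The HIVEP3 start used (42384593) lies well inside the gene. G and C made up 73.6% of the SDC4 window, 71.6% for HIVEP2, 48% for FILIP1L and 35.2% for HIVEP3. The window of HIVEP1, which also rose with DNR, is not reported here, so these comparisons do not set SDC4 apart from HIVEP1.

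The libraries held 28.7 to 46.5 M (mega) reads in genes. Mitochondrially encoded transcripts took 4.01% to 6.37% of these reads in the 4 libraries of replicate 1 and 2.49% to 3.48% in the others, and the part of this in the results was not tested. The 8 myeloid markers (granule genes such as MPO and ELANE, with SPI1 and CD33) summed to 10670 to 13810 counts per M reads (CPM) in every library. The sums were at most 13.5 CPM for 6 lymphocyte, 1.31 CPM for 6 erythroid and 6.06 CPM for 7 stromal and epithelial markers. Most of the myeloid sum was MPO, with group means of 10320 to 11270 CPM. ELANE had group means of only 0.675 to 1.81 CPM, below the lymphocyte marker NKG7 (8.67 to 10.5 CPM). The other myeloid markers each had group means of at least 39.3 CPM. CPM are scaled here by library size and TMM factor. In bulk RNA of this kind, fewer cells that express a gene and less RNA per cell cannot be told apart.

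HIVEP1 and SDC4 rose with DNR, HIVEP2 did not pass the test with DNR alone and was slightly lower with both drugs, HIVEP3 differed more between replicate numbers than between treatments, and FILIP1L was scarce.

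**Figure D1:**
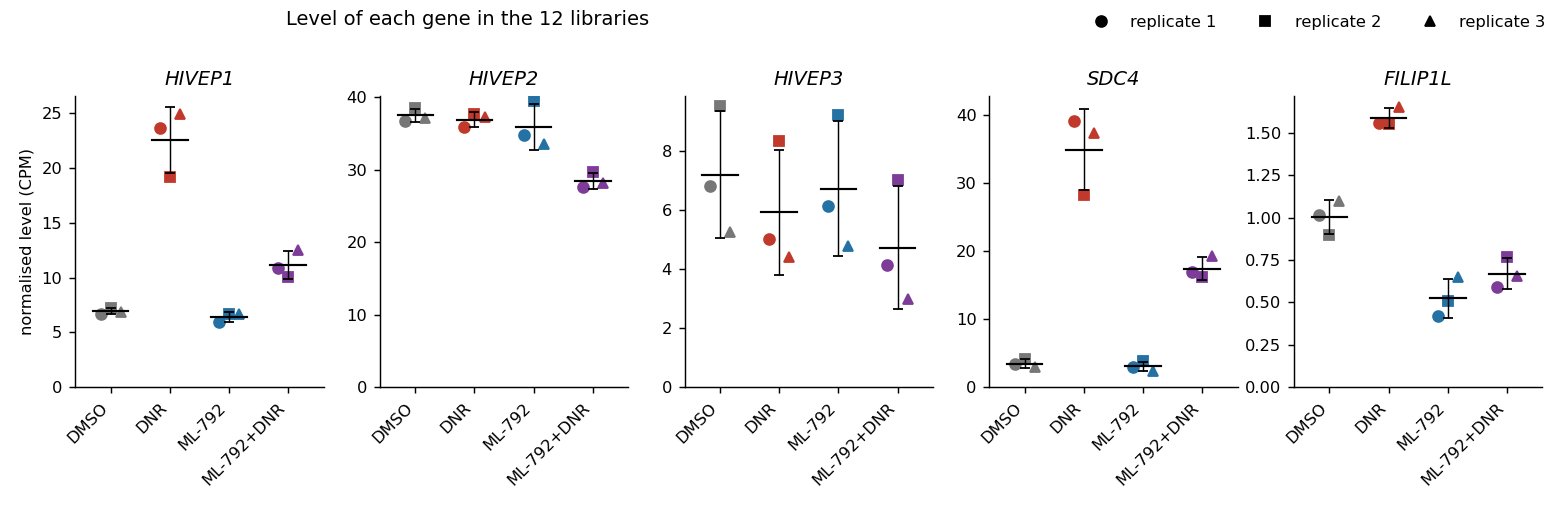
Level of each gene (CPM, linear axis from 0, 1 scale per gene) in the 12 libraries by treatment. Symbols stand for replicates 1, 2 and 3, and lines and bars for the mean and SD of each group (n = 3); the DNR libraries of HIVEP1 and SDC4 stand above all others, and replicate 2 is highest for HIVEP3 in every group.

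SDC4 showed the largest change of the 5 with DNR. In DMSO its level was 3.35, 4.15 and 2.93 CPM in replicates 1, 2 and 3, and in DNR 39.1, 28.1 and 37.4 CPM. ML-792 alone gave 3.02, 3.79 and 2.41 CPM, and ML-792+DNR 16.8, 16.1 and 19.3 CPM. The DNR and ML-792+DNR libraries thus lie in separate ranges above those without DNR, and the ML-792 range overlaps that of DMSO. SDC4 was picked as lower in ML-792+DNR than in DNR, so the separation of those groups is no test. The means were 3.48 ± 0.618 CPM in DMSO, 34.9 ± 5.90 in DNR, 3.07 ± 0.690 in ML-792 and 17.4 ± 1.65 in ML-792+DNR (SD, n = 3).

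The comparison of DNR with DMSO asks what DNR alone changes. SDC4 rose 10.1-fold (log2 3.33 ± 0.19 SE, adjusted p = 1.09e-07, edgeR), the change at rank 50 from the top of the 13696 tested genes. Within replicate numbers 1, 2 and 3 the rise was 11.7-fold, 6.79-fold and 12.7-fold. Genes were called where the adjusted p was under 0.05 and the difference reached 2-fold, and 4.07% of all tested genes were called higher in this comparison. These DNR libraries also entered the contrast on which SDC4, HIVEP1 and FILIP1L were picked, so their tests against DMSO are not independent of that choice.

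In SUMO-inhibited cells, DNR still raised SDC4: it rose 5.66-fold in ML-792+DNR over ML-792 (log2 2.50 ± 0.19 SE, adjusted p = 1.75e-06, edgeR), a comparison in which 3.68% of genes were called higher. Against DMSO the rise with both drugs was 5.03-fold (log2 2.33 ± 0.18, adjusted p = 2.74e-06), with 3.93% of genes called higher. Both comparisons share the ML-792+DNR libraries with the picking contrast. In absolute terms DNR added 31.4 CPM without ML-792 and 14.4 CPM with it, 45.7% as much. Setting these values side by side holds the picking contrast, so they are a description without a test.

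HIVEP1 followed SDC4 in direction with smaller changes. It stood at 6.69, 7.21 and 6.83 CPM in DMSO, and at 23.6, 19.1 and 24.9 CPM in DNR. With ML-792 it was at 5.91, 6.71 and 6.65 CPM, and with ML-792+DNR at 10.9, 10.0 and 12.5 CPM. No DNR library overlapped another group, and the ML-792+DNR libraries were all above DMSO and ML-792. HIVEP1 was picked as lower in ML-792+DNR than in DNR, so the separation of those groups is no test. Of all genes, 9.86% had every ML-792+DNR library below DNR. For comparison, 23% of all tested genes had every DNR library above DMSO, 24.2% every ML-792+DNR library above DMSO and 21.3% every ML-792+DNR library above ML-792. Replicate 2 was the lowest of its group with DNR and with ML-792+DNR, for HIVEP1 as for SDC4.

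HIVEP1 rose 3.26-fold with DNR, from a mean of 6.91 ± 0.268 CPM to one of 22.5 ± 3.02 CPM (SD, n = 3). The edgeR log2 change was 1.70 ± 0.13 (SE, adjusted p = 1.34e-06). The rise was 3.52-fold, 2.65-fold and 3.64-fold within replicates 1, 2 and 3. With both drugs HIVEP1 was 1.61-fold above DMSO (log2 0.69 ± 0.13, adjusted p = 0.00141) and 1.73-fold above ML-792 (log2 0.79 ± 0.13, adjusted p = 0.000637), past the adjusted p but under the 2-fold minimum. DNR added 15.6 CPM without ML-792 and 4.73 CPM with it, 30.3% as much. Setting these values side by side holds the contrast that picked HIVEP1, so they are a description without a test.

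FILIP1L had few reads, 16 to 54 counts per library, so its values carry the largest counting error of the 5. DMSO gave 1.01, 0.897 and 1.10 CPM and DNR 1.56, 1.55 and 1.65 CPM. ML-792 gave 0.420, 0.507 and 0.647 CPM and ML-792+DNR 0.589, 0.767 and 0.654 CPM. The DNR libraries were all above DMSO, and all 6 libraries with ML-792, alone or with DNR, were below every DMSO library. FILIP1L was picked on its DNR and ML-792+DNR libraries, so their positions are not independent of that choice.

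For FILIP1L the DNR against DMSO difference was 1.58-fold (log2 0.66 ± 0.21 SE, adjusted p = 0.0309), under the 2-fold minimum. Its adjusted p was 0.0554 to 0.101 when any 1 of the 6 DMSO and DNR libraries was left out, and 0.0702 with DESeq2. ML-792 alone lay 1.92-fold below DMSO (log2 −0.94, 95% interval −1.44 to −0.44, adjusted p = 0.185), the change at rank 48 from the lowest of all genes, with libraries that did not overlap, as for 5.98% of genes in that direction. This comparison shares no library with the contrast that picked FILIP1L. Against DMSO the level with both drugs was 1.49-fold lower (log2 −0.57 ± 0.23, adjusted p = 0.0643), and with the replicate number as a block the adjusted p was 0.0373. ML-792+DNR over ML-792 gave log2 0.37 (95% interval −0.16 to 0.89, adjusted p = 0.27). Both comparisons share the ML-792+DNR libraries with the contrast that picked FILIP1L, so they are not independent of that choice.

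**Figure D2:**
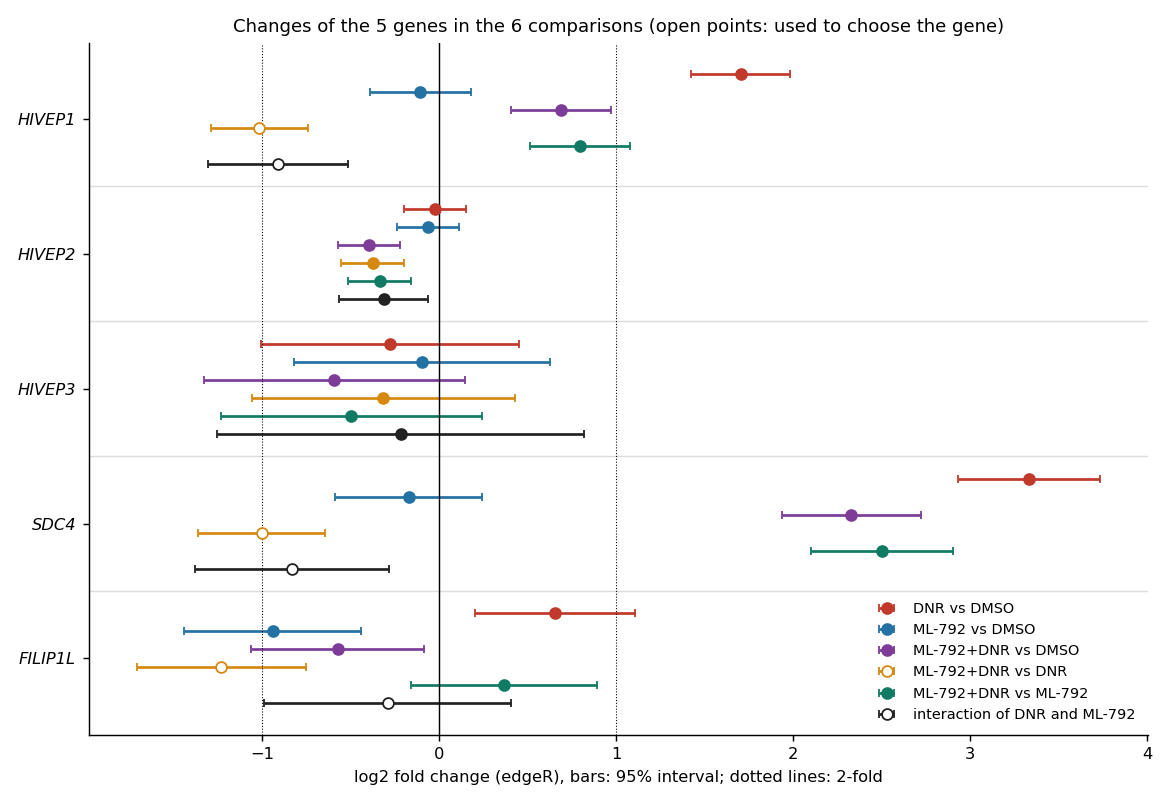
log2 fold changes from the edgeR fit (points) with 95% intervals (bars) for each gene and comparison, with dotted lines at 2-fold; open points mark the contrasts used to pick a gene, which have no test. SDC4 (3.33) and HIVEP1 (1.70) lie right of the 2-fold line with DNR, and the HIVEP3 intervals all span 0.

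ML-792+DNR against DNR asks what SUMO inhibition changes in DNR-treated cells. HIVEP1, SDC4 and FILIP1L were picked on it, so their values in it are descriptions without a test. The log2 differences were −1.23 for FILIP1L, −1.016 for HIVEP1 and −1.002 for SDC4, at ranks 34, 70 and 72 from the lowest of 13696. The level with both drugs was 42.2%, 49.5% and 50.0% of that with DNR, in the same order. Within replicate numbers the ratio was 0.431, 0.574 and 0.516 for SDC4 and 0.462, 0.524 and 0.504 for HIVEP1. For FILIP1L it was 0.378, 0.495 and 0.396. The interaction, which contains the same contrast, was −0.91 for HIVEP1, −0.83 for SDC4 and −0.29 for FILIP1L on the log2 scale, again with no test.

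The plot of the DNR effect without and with ML-792 sets these values among all genes. The axes share no library, but both hold libraries of the picking contrast, so that the position of HIVEP1, SDC4 and FILIP1L against the line of equal change follows from how they were picked.

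**Figure D3:**
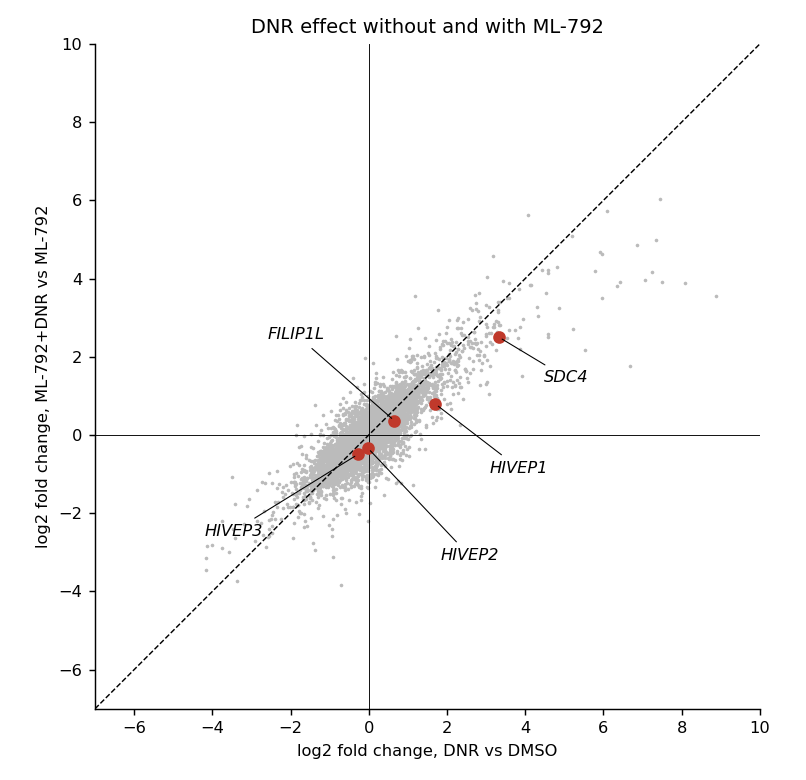
log2 fold change of DNR over DMSO (x axis) and of ML-792+DNR over ML-792 (y axis) for the 13696 tested genes (grey) and the 5 members (red), with a dashed line of equal change. SDC4 (3.33 and 2.50), HIVEP1 (1.70 and 0.79), HIVEP3 (−0.28 and −0.49) and the other members lie below the dashed line.

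HIVEP2 was the most abundant HIVEP gene and the steadiest. DMSO gave 36.8, 38.6 and 37.1 CPM and DNR 35.9, 37.8 and 37.3 CPM. ML-792 gave 34.8, 39.6 and 33.5 CPM, and ML-792+DNR 27.6, 29.7 and 28.2 CPM. The ML-792+DNR libraries were below all the others, and the remaining groups overlapped. HIVEP2 was 1.32-fold lower with both drugs than in DMSO (log2 −0.40 ± 0.08 SE, adjusted p = 0.0026), and 1.26-fold lower than in ML-792 (log2 −0.33 ± 0.08, adjusted p = 0.00759).

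Against DNR the level of HIVEP2 with both drugs was 1.30-fold lower (log2 −0.37 ± 0.08, adjusted p = 0.0556, and adjusted p = 0.00924 with the replicate number as a block). Libraries without overlap in that direction were seen for 9.86% of all genes in ML-792+DNR against DNR, 24.5% against DMSO and 21.5% against ML-792. DNR alone differed from DMSO by log2 −0.02 (95% interval −0.20 to 0.15, adjusted p = 0.875). The interaction for HIVEP2 was log2 −0.31 (95% interval −0.56 to −0.06, adjusted p = 0.999), so the DNR effect was not shown to depend on ML-792 at this threshold.

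HIVEP3 followed the replicate number. In replicates 1, 2 and 3 it was at 6.82, 9.50 and 5.25 CPM in DMSO, 5.02, 8.34 and 4.40 CPM in DNR, 6.15, 9.22 and 4.77 CPM in ML-792, and 4.12, 7.02 and 3.00 CPM in ML-792+DNR. Replicate 2 was highest and replicate 3 lowest in all 4 groups, and all groups overlapped. Against DMSO the log2 change was −0.28 with DNR (adjusted p = 0.584), −0.10 with ML-792 (adjusted p = 1) and −0.59 with both (adjusted p = 0.194). These tests did not take the replicate number into account. Within replicates 1, 2 and 3 the ratio of DNR to DMSO was 0.735, 0.878 and 0.837.

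With the replicate number as a block, HIVEP3 with both drugs was lower than DMSO by log2 −0.64 (adjusted p = 0.000649) and lower than ML-792 by log2 −0.53 (adjusted p = 0.00242, against 0.288 without the block). With DNR alone the block gave log2 −0.296 against DMSO (edgeR adjusted p = 0.0423), under the 2-fold minimum. Within replicates 1, 2 and 3 the ratio of ML-792+DNR to ML-792 was 0.671, 0.762 and 0.629. Without ML-792+DNR replicate 2 the change against DMSO was log2 −1.01 (adjusted p = 0.0371), a value past both thresholds. Replicate 2 was the highest of both groups and DMSO kept its own, so this fit set unlike replicate numbers against each other. With each library left out in turn the change was log2 −1.01 to −0.348 (edgeR adjusted p = 0.0371 to 0.507). Against DNR the difference was log2 −0.31 (adjusted p = 0.758; 0.103 with the block).

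In all, 2 of the 5 members, SDC4 and HIVEP1, were called higher with DNR (4.07% of all genes). SDC4 alone was called higher with both drugs against DMSO (3.93% of all genes) and against ML-792 (3.68%). SDC4 and HIVEP1 were picked on a contrast that holds the DNR and ML-792+DNR libraries. Setting these counts beside the shares of all genes is therefore no test. HIVEP2 and HIVEP3, not picked on values, were not called in these comparisons. With ML-792 alone 0 of the 5 were called by edgeR or by DESeq2, and 0.0803% of all genes were called in either direction. Of the 5, 1, FILIP1L, had an unadjusted p below 0.05, as had 697 of all 13696 genes. Of the 2 members tested in ML-792+DNR against DNR, HIVEP2 and HIVEP3, 0 were called by either tool, with 0.197% of all genes called. HIVEP2 had an unadjusted p below 0.05, as had 1768 of all 13696 genes. In the interaction 0 of those 2 members and 0% of all 13696 genes were called with edgeR (493 genes at an unadjusted p below 0.05) and 7 genes with DESeq2.

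Within the family, HIVEP1 took 13.04% to 13.88% of the reads of the 3 HIVEP genes in DMSO and 29.3% to 37.4% in DNR. In ML-792 the share was 12.1% to 14.8%, and in ML-792+DNR 21.4% to 28.7%. These shares need no scaling between libraries, and the DNR libraries lie above the ML-792+DNR libraries, which lie above the overlapping DMSO and ML-792 libraries. HIVEP1 was picked as lower in ML-792+DNR than in DNR, so the order of those groups is not independent of that choice. HIVEP2 held most reads in every library, 69.8% to 75.5% in DMSO and 55.6% to 57.9% in DNR.

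**Figure D4:**
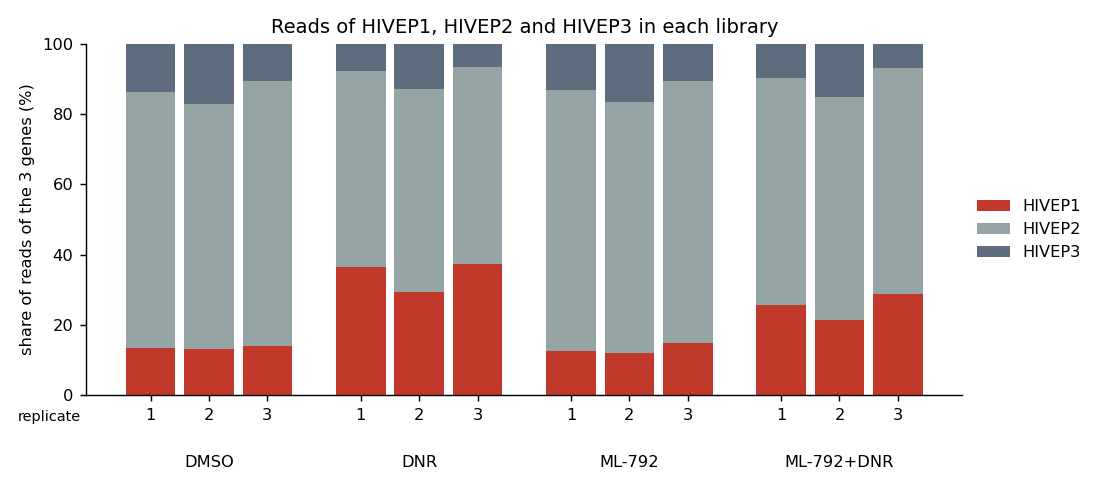
Share of the reads of the 3 HIVEP genes (%, bars stacked to 100) taken by HIVEP1 (red), HIVEP2 (light grey) and HIVEP3 (dark grey) in each of the 12 libraries. The red share is 29.3% to 37.4% in the DNR libraries and 13.04% to 13.88% in the DMSO libraries.

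Levels of different genes can be compared per length, as CPM per kilobase of annotated exons. In DMSO HIVEP2 led with 3.33 ± 0.0841, followed by SDC4 with 1.33 ± 0.237, HIVEP1 with 0.628 ± 0.0244, HIVEP3 with 0.492 ± 0.147 and FILIP1L with 0.139 ± 0.0138 CPM per kb (SD, n = 3). The means of HIVEP1 and HIVEP3, neighbours in this order, did not differ beyond the spread of HIVEP3. In DMSO replicates 1, 2 and 3 HIVEP1 was at 0.608, 0.655 and 0.621 and HIVEP3 at 0.466, 0.650 and 0.359 CPM per kb. HIVEP1 was thus the higher in each library. In DNR the order was led by SDC4 with 13.3 ± 2.26 CPM per kb, ahead of HIVEP2 with 3.28 ± 0.0872 and HIVEP1 with 2.05 ± 0.274. With both drugs SDC4 still led with 6.67 ± 0.633, ahead of HIVEP2 with 2.53 ± 0.0952 and HIVEP1 with 1.01 ± 0.116 CPM per kb.

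FILIP1L lies inside CMSS1 (chromosome 3, 99536681 to 99900576), which is read from the opposite strand, and no annotated exon base is shared. CMSS1 was at 89.2 to 116.8 CPM, far above FILIP1L, with log2 changes of −0.02 to 0.09 in the 6 comparisons and no call. The sources used here do not give the strand setting of the counting, and without it any intronic CMSS1 reads that lie on FILIP1L exons cannot be told apart from reads of FILIP1L. The other annotated genes that overlap a member were not in the count table, apart from a microRNA gene, MIR3921, in FILIP1L.

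**Figure D5:**
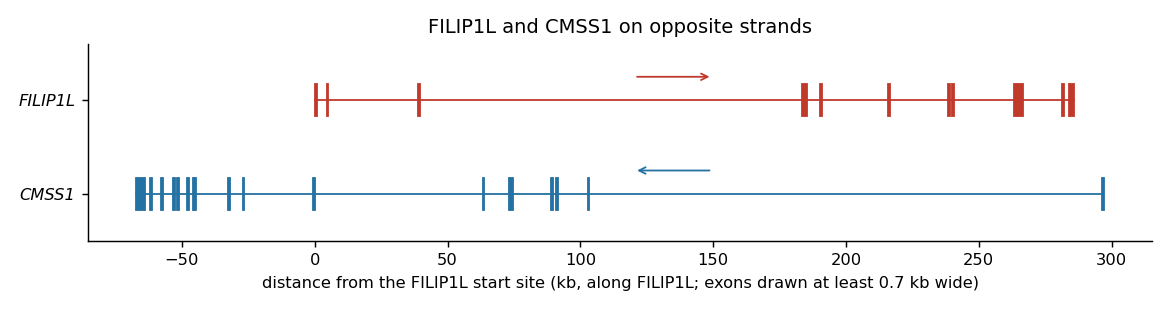
FILIP1L (red) and CMSS1 (blue) with their annotated exons (boxes) by distance from the FILIP1L start site in kb along FILIP1L, and arrows for the direction of transcription. No exon base is shared between the genes.

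The nearest tested gene on each side of each member was not called in any comparison (0 of 10 with edgeR and with DESeq2). With DNR 4.07% of all genes were called higher and 2.91% lower. In that comparison 5 of these 10 had an unadjusted p below 0.05, as had 5548 of all 13696 genes, with log2 changes from −0.91 to 0.49. An adjusted p below 0.05 with DNR was reached by 4 of the 10, under the 2-fold minimum, and by 4108 of all genes. The neighbours on either side of SDC4, STK4 and SYS1-DBNDD2, had log2 changes of −0.21 and −0.91, and those of HIVEP1, TMEM170B and the pseudogene RPL15P3, 0.02 and −0.33.

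Profiles most like each member were sought among 11252 genes by the root mean square difference of centred log2 CPM over the 12 libraries. For HIVEP1 they were NFKBID, an atypical IκB protein (0.176), the chemokine CCL5 (0.186) and TIFA, an adaptor of TRAF6 (0.207). For SDC4 they were SERTAD1 (0.283), the NF-κB subunit NFKB2 (0.350) and the polyamine enzyme SAT1 (0.377). For FILIP1L they were TRAF1, a signal adaptor of TNF receptors (0.275), the histone demethylase KDM6B (0.331) and the protease PLAU (0.332). HIVEP2 was nearest to PRR14L, NOTCH2 and YTHDF3 (0.0757 to 0.0776), and HIVEP3 to HLF, NFIB and HEG1 (0.185 to 0.210). The 12 libraries include those of the contrast that picked HIVEP1, SDC4 and FILIP1L. The profiles nearest to these picked genes are thus not independent of that choice. That of FILIP1L also rests on few reads.

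The listed 11 genes for NF-κB subunits and inhibitors were all tested. With DNR 8 rose and 0 fell (4.07% of all genes called higher and 2.91% lower), with a median log2 of 1.64 against 0.01 over all genes. With ML-792 alone 0 were called by edgeR or DESeq2 (2 at an unadjusted p below 0.05). With both drugs 6 rose over DMSO (3.93% of all genes called higher) and 7 over ML-792 (3.68%). NFKB2 rose from 4.80 to 70.5 CPM with DNR (log2 3.87 ± 0.19 SE, adjusted p = 2.13e-08), NFKBIA, the inhibitor IκBα, from 15.8 to 159.4 CPM (log2 3.34 ± 0.16, adjusted p = 2.13e-08) and RELB from 4.02 to 28.1 CPM (log2 2.81 ± 0.19, adjusted p = 4.86e-07). BCL3 had 1 count over the DMSO group and 319 over DNR, 379.8 times as many per read of depth (exact 95% binomial interval 67.7 to 15050, counting error only). In ML-792+DNR against DNR 2 of the 11 fell, where 0.102% of all genes were called lower, namely NFKB2 (log2 −1.05 ± 0.16, adjusted p = 0.0127) and BCL3.

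Of 32 listed genes of SMAD signalling, the pathway of the fly relative of the HIVEP genes, 28 were tested. With DNR 1 rose, the activin receptor ACVR2A (2.85 to 6.90 CPM, log2 1.27 ± 0.18, adjusted p = 0.000166), against 4.07% of all genes called higher. In the other direction 3 fell, against 2.91% of all genes called lower. These were the inhibitory SMAD6 (log2 −1.48 ± 0.28, adjusted p = 0.00164), the corepressor TGIF1 (log2 −1.16 ± 0.09, adjusted p = 1.49e-06) and the BMP antagonist NOG (log2 −1.09 ± 0.20, adjusted p = 0.00108). NOG was higher with both drugs than with DNR, as called for 0.0949% of all genes (1.52 to 4.41 CPM, log2 1.54 ± 0.20, adjusted p = 0.00569). With ML-792 alone NOG was at 6.12 CPM against 3.22 in DMSO, not called (log2 0.92 ± 0.18, edgeR adjusted p = 0.0598). Its interaction was log2 0.62 ± 0.26 (edgeR adjusted p = 0.999). Over DMSO and over ML-792, ACVR2A and the decoy receptor BAMBI rose with both drugs, 2 of the 28 genes in each comparison. Of all genes, 3.93% and 3.68% were called higher in these comparisons.

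Of 41 listed genes for syndecans, glypicans, their binding proteins and the enzymes of heparan sulfate, SDC4 left out, 23 were tested. With DNR 0 of them were called by edgeR or DESeq2 (11 at an unadjusted p below 0.05), and the median log2 was −0.07. The only call was the sulfotransferase NDST3, lower in ML-792+DNR than in ML-792 (1.38 to 0.678 CPM, log2 −1.02 ± 0.31, adjusted p = 0.0239), where 2.66% of all genes were called lower. Of the 13 tested focal adhesion partners of syndecan-4, 1 fell with DNR, where 2.91% of all genes were called lower. This was the integrin ITGA5 (166.7 to 68.1 CPM, log2 −1.29 ± 0.12, adjusted p = 7.13e-06). ITGA5 also fell with both drugs against DMSO (2.56% of all genes called lower) and against ML-792 (2.66%). Of 4 genes for FILIP1 and the filamins 2 were tested, and with DNR 0 were called by either tool (1 at an unadjusted p below 0.05).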

How the data were processed

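The members, lists and tests were chosen with earlier results of these data known. The authors sequenced polyadenylated RNA (stranded kit, single-end) and, per the submitters' processing notes and the study's methods, mapped reads to hg19 using TopHat2 2.1.1 (Bowtie2 2.3.5.1), then made read counts per gene with HTSeq 0.11.1; Cufflinks 2.2.1, Picard and DESeq2 are also named. The deposited raw counts were used here, and deposited normalized values and comparisons were not. Of the 42157 genes, edgeR's filterByExpr (minimum count 10, total 15) kept 13696. The edgeR 4.0.16 quasi-likelihood test (R 4.3.3, TMM) took all 12 libraries in 1 model of the 4 groups, adjusted by Benjamini-Hochberg over all tested genes, and tested on simulated data. No library was a copy of another of its group. The p-values cover the spread between these 3 replicates per group. Genes named were the members, overlapping and neighbouring genes, the 3 nearest profiles and up to 3 called genes of each list with the largest change. DESeq2 1.42.0 and the alternatives below were run. Gene models are GENCODE on GRCh37.

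Same-numbered libraries deviated together in 4 of 6 comparisons (every r above 0.1). The lowest r was under this minimum in DNR against DMSO (0.0852) and in the interaction (0.0722). In DNR against DMSO r was 0.0852 to 0.336 for the same number and −0.275 to 0.00401 for different numbers. In the interaction r was 0.0722 to 0.587 for the same number and −0.498 to 0.0913 for different numbers.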

Additional observations from a re-analysis of the deposited data

How the results depend on the processing

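Of the members' values under all alternatives 565 kept their direction and, where tested, their side of the adjusted p, 8 newly passed it, 10 no longer did and 6 reversed, all of them HIVEP3 with a library left out and a change not past the threshold. HIVEP3 was 0.153 in ML-792 against DMSO without DMSO replicate 2 and 0.096 without ML-792 replicate 3 (−0.393 to 0.153 over all libraries left out), and 0.015 in ML-792+DNR against DNR without DNR replicate 2 (−0.731 to 0.015). In the interaction it was 0.111 without DNR replicate 2, 0.079 without ML-792 replicate 2 and 0.02 without ML-792+DNR replicate 3 (−0.635 to 0.111). FILIP1L in DNR against DMSO was log2 0.658 with DESeq2 (adjusted p = 0.0702), 0.642 with no count filter (0.116), 0.667 with replicates 2 and 3 only (0.155) and 0.578 to 0.71 with each library left out. HIVEP2 in ML-792+DNR against DNR was −0.375 with DESeq2 (0.00235) and −0.379 with a mean of at least 1 CPM (0.0361), and against ML-792 −0.343 with replicates 2 and 3 only (0.074). HIVEP3 with both drugs against DMSO was −1.01 to −0.348 with each library left out. The causes were not tested.

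With the replicate block, HIVEP3 was −0.296 in DNR against DMSO (adjusted p = 0.0423), where the lowest same-numbered r (0.0852) was under the 0.1 minimum. HIVEP3 with both drugs was −0.64 against DMSO and −0.528 against ML-792, FILIP1L −0.57 against DMSO, and HIVEP2 −0.375 against DNR. The block called 25 genes in ML-792 against DMSO, 52 in ML-792+DNR against DNR and 1 in the interaction. It moved no other member across the adjusted p.

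Counts of called genes, the background for the members, were 11 in ML-792 against DMSO (21 with DESeq2, 27 with no count filter, 4 with replicates 2 and 3 only, 33 with no fold minimum, 26 at 1.5-fold, 5 to 15 with each library left out) and 27 in ML-792+DNR against DNR (44 with no count filter, 8 with its groups only, 2 with replicates 2 and 3 only, 102 with no fold minimum, 50 at 1.5-fold, 1 to 25 with each library left out). The interaction had 0 (7 with DESeq2, 11 with no count filter, 0 to 1 with each library left out). DNR against DMSO had 956 (606 at a mean of at least 1 CPM, 568 with replicates 2 and 3 only, 4108 with no fold minimum, 1999 at 1.5-fold). Both drugs against DMSO had 888 (545, 496, 4843 and 2205 in the same order) and against ML-792 868 (549, 446, 4626 and 2072). Per kb of the longest transcript, DMSO levels were 0.763 for HIVEP1, 3.74 for HIVEP2 and 0.178 CPM for FILIP1L. FILIP1L, at 16 to 54 counts per library, is the member most limited by depth.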
